A study of Mus musculus with 20 samples.

Results

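The constant genes of the gamma, delta and alpha T-cell receptor chains were examined in RNA sequencing of transplanted mouse T-cell acute lymphoblastic leukemias (T-ALL). The genes were chosen by symbol, as *Tcrg-C1*, *Tcrg-C2*, *Tcrg-C4*, *Trdc* and *Trac*, and 4 of these 5 were found among the 39017 genes of the table. The delta constant gene *Trdc* was not analysed here, so that the delta locus was followed through 5 delta V genes. The leukemias arose by insertional mutagenesis (IM) with the retrovirus MOL4070LTR in C57Bl/6 x 129Sv/Jae F1 mice and were then passed to irradiated recipients. Each of the 10 leukemias, 20M, 2M, 4638, 5C, 73A, 73M, 78A, 8633, JW14 and JW81, was 1 tumour with 2 libraries made from recipient bone marrow. The labels give no genotype, NOTCH state, age or treatment for a library. One column of each leukemia carries the letters VEH in its name and the other DEX, and neither is explained in the labels or in the text of the study. The tests were run on the 18 libraries of 9 leukemias. Leukemia 4638 was left out of them by a choice carried over from earlier work on these data, which neither the labels nor the study's text sets, and its values and the tests with it are given beside the others.

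A T cell carries either an alpha-beta or a gamma-delta receptor. The chains are assembled by joining V, D and J segments with the RAG recombinase, and the joined exon is spliced to a constant gene. The beta, gamma and delta loci are rearranged in early thymocytes, under NOTCH1 signalling, and alpha joining follows once a beta chain has paired with the pre-TCR alpha chain. The delta genes lie inside the alpha locus, between the alpha V segments and the alpha J segments, so that an alpha V to J joining deletes them from that chromosome. An enhancer downstream of *Trac* drives the alpha constant region. Gamma constant genes can be transcribed from rearranged loci in cells of either lineage and also from unrearranged loci, so a constant gene transcript does not by itself show a functional receptor.

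In the GRCm38 (mm10) build, *Tcrg-C1* (chr13:19214103-19217024, plus strand) lies downstream of *Tcrg-V7*, *Tcrg-V4*, *Tcrg-V6* and *Tcrg-V5*. *Tcrg-C2* (chr13:19304649-19307551, minus strand) is paired with *Trgv2* on the same strand, and *Tcrg-C4* (chr13:19344558-19352756, plus strand) lies downstream of *Tcrg-V1*. *Trac* (chr14:54220521-54224206, plus strand) is followed by the housekeeping gene *Dad1*. The gamma constant genes are close copies of one another, which bears on how reads were divided between them. The first 90 bases of exon 1, which codes for the constant domain, are shown for the 3 gamma genes and for *Trac* from the GENCODE M21 transcripts, 5′ to 3′, with bases that differ from *Tcrg-C1* in capitals for the other gamma genes.
Tcrg-C1, chr13:19214103-19214192, plus strand: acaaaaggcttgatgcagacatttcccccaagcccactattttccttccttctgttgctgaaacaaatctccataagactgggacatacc
Tcrg-C2, chr13:19307462-19307551, minus strand: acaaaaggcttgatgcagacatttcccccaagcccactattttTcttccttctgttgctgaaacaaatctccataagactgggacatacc
Tcrg-C4, chr13:19344558-19344647, plus strand: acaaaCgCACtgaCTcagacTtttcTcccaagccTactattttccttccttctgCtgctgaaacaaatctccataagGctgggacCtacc
Trac, chr14:54220521-54220610, plus strand: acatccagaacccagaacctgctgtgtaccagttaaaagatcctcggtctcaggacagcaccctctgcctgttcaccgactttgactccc

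Over the 330 bases of exon 1, *Tcrg-C2* differed from *Tcrg-C1* at 9 bases (97.3% identity) and *Tcrg-C4* at 59 bases (82.1%). The short connecting exons that follow also differ between the genes. They code for the hinge between the constant domain and the membrane, and each is shown whole.
Tcrg-C1 exon 2, chr13:19215864-19215908, plus strand: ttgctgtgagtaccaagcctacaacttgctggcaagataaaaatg
Tcrg-C2 exon 2, chr13:19305769-19305798, minus strand: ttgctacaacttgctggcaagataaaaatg
Tcrg-C4 exon 2, chr13:19349536-19349589, plus strand: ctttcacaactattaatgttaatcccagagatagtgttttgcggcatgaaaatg
Tcrg-C4 exon 3, chr13:19350330-19350374, plus strand: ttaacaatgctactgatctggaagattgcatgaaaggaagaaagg

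Of the 825 windows of 100 bases in the *Tcrg-C1* transcript, 5 were also found in *Tcrg-C2* and 0 in *Tcrg-C4* or *Trac*. A further gamma constant gene of the table, *Tcrg-C3*, is not among the genes chosen, shared 23 of these windows and was at 0 to 1.73 FPKM in the 18 libraries of the tests. The counts kept the near-identical pair apart in both directions. Leukemia 2M held 4319 and 8259 *Tcrg-C1* counts (VEH and DEX column, the order used throughout) with 3 and 4 counts on *Tcrg-C2*, and 8633 held 2506 and 1810 *Tcrg-C2* counts with 0 and 2 on *Tcrg-C1*.

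The 18 libraries held 8226528 to 201222288 counts, with a median of 24451898. Levels are given as FPKM, counts scaled by exon length and library total, and 3 counts on *Trac* corresponded to 0.01595 to 0.390 FPKM. The T lineage was evident in every leukemia, since the summed level of 9 T lineage genes was 341 to 1044 FPKM, while 9 B lineage genes summed to 0.545 to 29.8 FPKM and 11 myeloid genes to 10.1 to 568 FPKM. In 4638 the myeloid sum reached 1383 and 952 FPKM and the T lineage sum was 223 and 187 FPKM. In bulk marrow, fewer cells of a type and less RNA per cell cannot be told apart. The libraries of 8633 and JW14 were unusually alike. Across the 11339 genes that averaged 1 FPKM or more, their libraries correlated at 0.953 to 0.981 (Pearson's r of log2 levels), against at most 0.958 between libraries of any other pair of leukemias. They also shared the same leading alpha and gamma V genes, described below. Whether they are independent tumours was not tested, and the test among leukemias, the separation by NOTCH1 targets and the correlations are given without each.

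The levels of all 4 constant genes differed among the 9 leukemias by more than the 2 libraries of a leukemia did. In edgeR's quasi-likelihood F test the adjusted p was 1.29e-09 for *Tcrg-C2*, 1.13e-07 for *Trac*, 1.39e-07 for *Tcrg-C1* and 0.000142 for *Tcrg-C4*. This test called 9351 of 11339 genes, or 82.5%, so that 4 of 4 constant genes called is near the background. With 4638 added the 4 adjusted p-values lay between 3.54e-10 and 1.69e-05. Without 8633 they lay between 1.27e-08 and 0.000539, and without JW14 between 1.30e-08 and 0.000570. The 2 libraries come from separate samples of 1 tumour, and the test is about these tumours.

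*Tcrg-C1* was transcribed in some leukemias at the highest level of these 4 genes and was close to absent in others. JW81 had 296 and 217 FPKM and 2M had 221 and 274 FPKM. 20M followed with 62.9 and 63.0 FPKM, and 5C with 33.5 and 45.7 FPKM. Lower values were found in 73M, at 22.5 and 11.4 FPKM. In 73A they were 1.46 and 9.36 FPKM, from 17 and 201 counts, a 6.40-fold difference between the libraries of 1 leukemia. 78A had 0.327 and 1.20 FPKM. In JW14 the 2 libraries held 5 and 0 counts, and in 8633 they held 0 and 2. Neighbours in this order were apart, with libraries that did not overlap and a gap above the pooled within-leukemia SD of 0.59 on the log2(FPKM + 1) scale, except for JW81 beside 2M, JW14 beside 8633, and 78A beside JW14, whose DEX library at 0 counts allows up to 0.395 FPKM (3 counts), above the 0.327 FPKM of 78A. In 73A the myeloid sum was 568 and 328 FPKM and the T lineage sum 654 and 626 FPKM, and the part of either in the difference was not tested.

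*Tcrg-C2* split the leukemias differently. It was highest in JW81, at 200.0 and 228 FPKM, and 73M had 178 and 106 FPKM. The leukemias 8633 (92.4 and 86.8 FPKM), JW14 (54.4 and 54.0 FPKM) and 20M (46.7 and 38.7 FPKM) formed the middle of the range. 73A had 1.39 and 1.04 FPKM, from 16 and 22 counts and above its floors of 0.261 and 0.141 FPKM (3 counts). The lowest levels were 0.774 and 0.0767 in 5C, 0.110 and 0.278 in 78A, and 0.155 and 0.134 in 2M. The step from 20M down to 73A was 4.30 on the log2(FPKM + 1) scale, against a pooled SD of 0.27. The 3 lowest, 5C, 78A and 2M, could not be ordered, since their libraries overlapped.

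*Tcrg-C4* was the gamma constant gene found in every leukemia, with at least 19.4 FPKM in each of the 18 libraries. JW81 (220 and 211 FPKM) and 73A (193.4 and 196 FPKM) were highest and lay within the pooled SD of 0.51 of each other. 73M had 183.9 and 83.4 FPKM, 2M had 103 and 90.1 FPKM, 78A had 35.96 and 98.1 FPKM, and 20M had 52.6 and 31.1 FPKM. JW14 (34.8 and 26.8 FPKM), 8633 (33.9 and 26.2 FPKM) and 5C (19.4 and 31.8 FPKM) were lowest. From one leukemia to the next in this order, the step from 73A to 73M (0.65 on the log2 scale) was the one with libraries apart and a gap above the SD. The libraries of 78A differed 2.73-fold and those of 73M 2.20-fold. In 78A the myeloid sum was 114.5 and 196 FPKM, and in 73M it was 250 and 69.0 FPKM, with 29.8 and 5.57 FPKM for the B lineage genes.

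*Trac*, the alpha constant gene, was highest in 5C, at 142 and 145 FPKM. 8633 had 95.85 and 110 FPKM and JW14 had 90.01 and 86.6 FPKM, and these leukemias differed by less than the pooled SD of 0.29. After a step of 1.42 on the log2 scale came 78A (35.5 and 29.7 FPKM), 20M (37.8 and 25.4 FPKM), JW81 (27.0 and 32.7 FPKM) and 2M (36.0 and 17.8 FPKM), whose libraries overlapped from each to the next. 73M was lower, at 14.5 and 14.1 FPKM. In 73A *Trac* was 1.45 and 0.966 FPKM, from 17 and 21 counts, 2.80 below 73M on the log2 scale. The neighbouring gene *Dad1* stayed between 6.31 and 13.6 FPKM in all 18 libraries, with 7.25 and 6.31 FPKM in 73A. Leukemia 4638 had 97.7 and 114 FPKM of *Tcrg-C1*, 65.4 and 45.3 of *Tcrg-C2*, 12.2 and 6.59 of *Tcrg-C4*, and 57.0 and 35.5 of *Trac*.

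**Figure D1:**
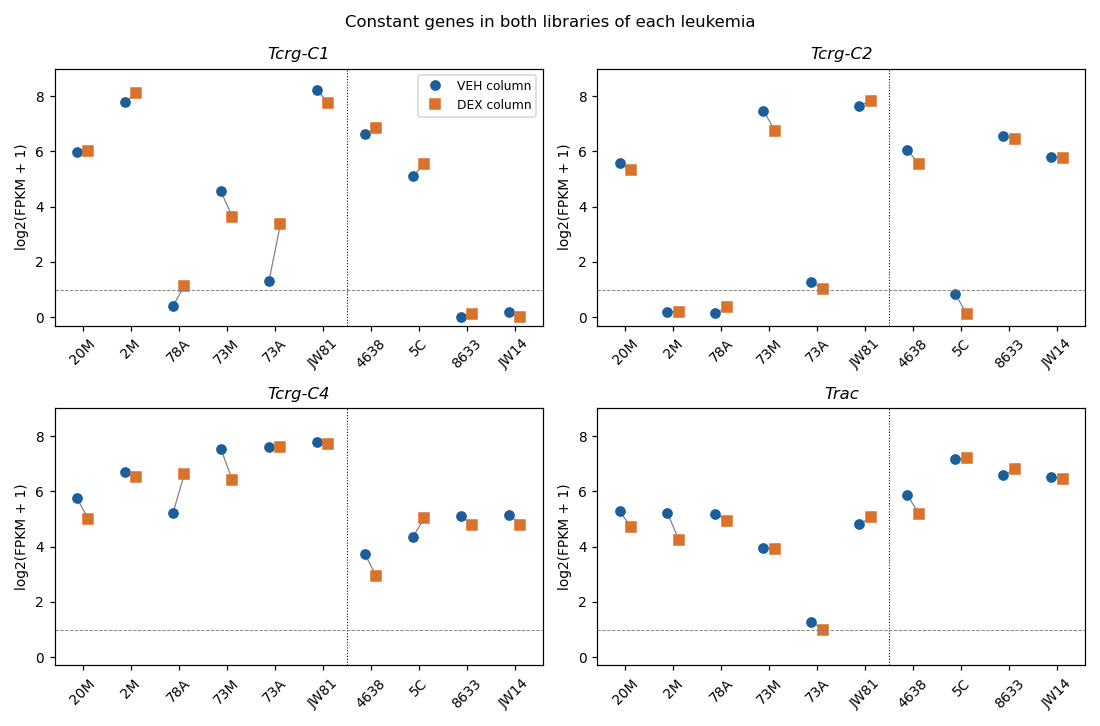
Levels of the 4 constant genes on the log2(FPKM + 1) scale (y axes) in each leukemia (x axes, in falling order of the NOTCH1 target list, with the dotted line before the leukemias with low targets), circles for VEH and squares for DEX columns, joined by a line, and a dashed line at 1 FPKM. *Tcrg-C4* lies above 1 FPKM in every library, while *Tcrg-C1* and *Tcrg-C2* each fall below that line in a different subset and *Trac* is lowest in 73A.

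The leukemias differed in which of the 3 gamma genes they used and in the total. The summed level was 716 and 655 FPKM in JW81, above the 384 FPKM of the next library, the VEH library of 73M. It was lowest in 78A (36.4 and 99.6 FPKM) and 5C (53.7 and 77.55 FPKM). JW81 and 20M divided the sum over all 3 genes, with 27.9% to 41.3% on each in JW81 and 23.4% to 47.4% in 20M. 73A (98.5% and 94.96%) and 78A (98.8% and 98.5%) had nearly all of it on *Tcrg-C4*. 8633 (73.1% and 76.7%) and JW14 (60.9% and 66.85%) had most on *Tcrg-C2* and the rest on *Tcrg-C4*. 2M (68.1% and 75.25%) and 5C (62.4% and 58.9%) had most on *Tcrg-C1* and the rest on *Tcrg-C4*. 73M divided it between *Tcrg-C2* (46.3% and 52.8%) and *Tcrg-C4* (47.9% and 41.5%). The gamma sum exceeded *Trac* 136-fold and 213-fold in 73A, and in 5C it was 0.378 and 0.534 of the *Trac* level.

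**Figure D2:**
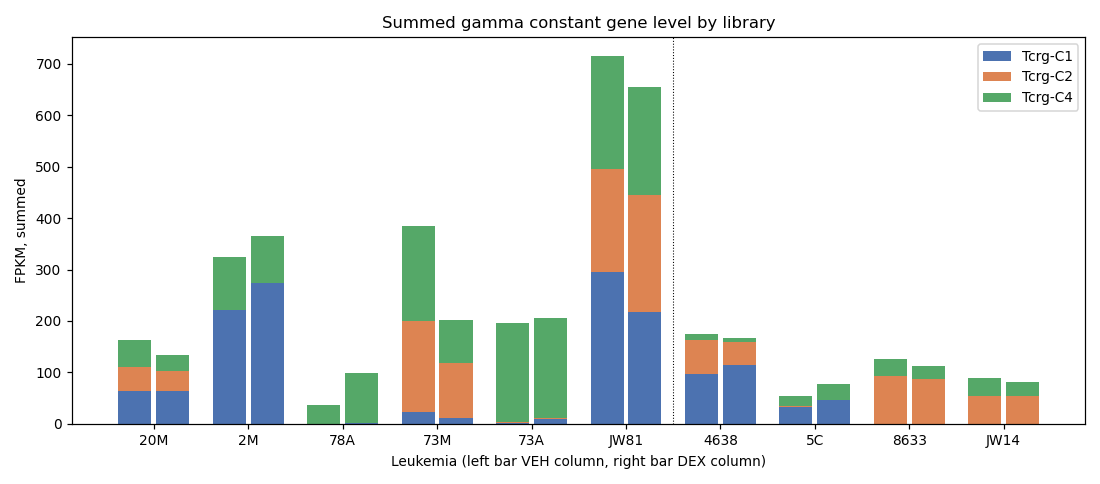
Summed FPKM of *Tcrg-C1*, *Tcrg-C2* and *Tcrg-C4* (y axis, from 0) in the VEH (left bar) and DEX (right bar) library of each leukemia (x axis), with colours for the genes. JW81 reaches 716 and 655 FPKM over all 3 genes, and 73A and 78A consist almost entirely of *Tcrg-C4*.

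Each gamma constant gene had a V gene of its own cluster whose level followed it from leukemia to leukemia. Over the 9 leukemias, Pearson's r of log2 levels was 0.99 between *Tcrg-V4* and *Tcrg-C1*, 0.92 between *Trgv2* and *Tcrg-C2*, and 0.96 between *Tcrg-V1* and *Tcrg-C4*. Across clusters the largest r was 0.58, between *Tcrg-V1* and *Tcrg-C1*. Without 8633 the same 3 values were 0.98, 0.91 and 0.96, and without JW14 they were 0.98, 0.92 and 0.98. These are descriptions over 9 points that share their libraries. The V gene of a transcript's own cluster can be read in the same molecules as its constant gene, and the V to C joins themselves were not analysed here.

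*Tcrg-V4* held 75.7% (95% Wilson interval 74.2% to 77.2%) and 81.2% (80.2% to 82.2%) of the gamma V counts in 2M, 72.4% and 73.5% in 5C, and 52.7% and 58.8% in 20M. *Tcrg-V1* led in 73A (81.5% and 72.8%) and in 78A (76.2% and 72.2%), the leukemias with nearly pure *Tcrg-C4*. *Trgv2* led in 8633, with 83.9% (81.6% to 85.95%) and 88.7% (86.3% to 90.8%), and in JW14, with 85.2% (82.8% to 87.4%) and 87.2% (81.6% to 91.2%). In 73M *Trgv2* (50.1% and 51.3%) and *Tcrg-V1* (45.8% and 41.0%) divided the counts. These intervals cover counting error only, and the libraries of 2M, for example, lie outside each other's. JW81 had 4 V genes at similar shares, namely *Trgv2* (27.5% and 30.9%), *Tcrg-V4* (26.6% and 22.4%), *Tcrg-V1* (24.5% and 28.8%) and *Tcrg-V7* (21.3% and 17.9%). *Tcrg-V7* was at 2.33% or less in every library of the other 8 leukemias. The leading V gene was the same in both libraries of 9 of 9 leukemias.

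Differences between the libraries of 1 leukemia were shared by a V gene of the cluster in some cases and not in others. In 78A *Tcrg-V1* was 23.7 and 60.3 FPKM while *Tcrg-C4* was 35.96 and 98.1 FPKM. In 73M *Tcrg-V1* was 155 and 88.3 FPKM and *Trgv2* 129 and 84.2 FPKM, with *Tcrg-C4* at 183.9 and 83.4 FPKM and *Tcrg-C2* at 178 and 106 FPKM. *Tcrg-C1* in 73M did not follow *Tcrg-V4*, since it was 22.5 and 11.4 FPKM where *Tcrg-V4* was 9.83 and 12.8 FPKM, while *Tcrg-V7* was lower in the same library, at 2.94 and 1.68 FPKM. In 73A *Tcrg-C1* was 1.46 and 9.36 FPKM, with *Tcrg-V5* at 5.83 and 16.7 FPKM, *Tcrg-V6* at 5.06 and 9.13 FPKM, *Tcrg-V4* at 4.29 and 7.17 FPKM, and *Tcrg-V7* at 4.11 and 4.56 FPKM. A V gene could also be present without its constant gene, as in 2M, where *Trgv2* had 60 and 84 counts and *Tcrg-C2* had 3 and 4.

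**Figure D3:**
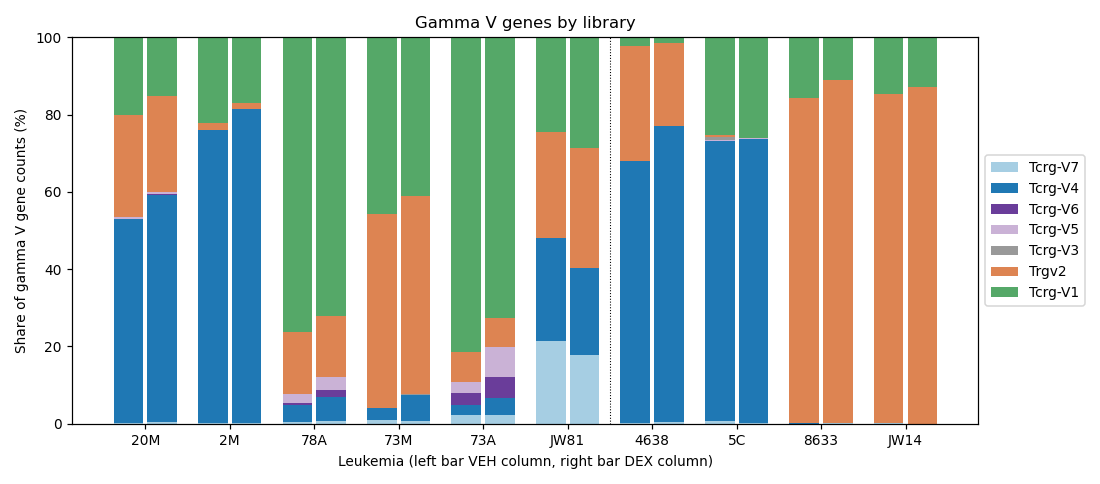
Share of the counts of 7 gamma V genes on each gene (y axis, percent) in the VEH (left bar) and DEX (right bar) library of each leukemia (x axis). *Tcrg-V4* leads in 20M, 2M, 4638 and 5C, *Tcrg-V1* in 73A and 78A and *Trgv2* in 8633 and JW14, while JW81 has 4 V genes between 17.9% and 30.9%.

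The 5 delta V genes were abundant in 1 leukemia. V genes whose symbol names both chains, such as *Trav21-dv12*, were counted with the alpha V genes and not with these 5. JW81 held 1743 and 1316 counts on the 5 delta V genes, 67.9 and 63.4 CPM (counts scaled to a common library size). *Trdv1* took 84.1% (82.3% to 85.7%) and 83.4% (81.2% to 85.3%) of them and *Trdv2-2* 12.6% and 14.8%. At 169 and 157 FPKM, *Trdv1* was close to *Tcrg-V4* in the same libraries, at 169.5 and 136 FPKM. The next highest level was 2.11 CPM, in the VEH library of 20M, where 83 counts were spread over *Trdv2-2* (49.4%), *Trdv2-1* (28.9%), *Trdv1* (15.7%) and others. 78A had 47 and 29 delta V counts, 73A had 12 and 30, and 73M had 121 and 8. In the VEH library of 73M, 44 of the 121 were on *Trdv5*, whose annotation overlaps the end of *Trdc* on the opposite strand, and whether strand was used in counting is not given in the sources used here. No delta V count was found in the libraries of 2M, 5C and 8633, which allows at most 0.0921 to 0.265 CPM in a library (3 counts). JW14 had 1 and 0 counts and 4638 had 1 and 5. The 3 leukemias with the highest *Trac* were thus among those with the fewest delta V counts, and so was 2M, with 36.0 and 17.8 FPKM of *Trac*.

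The alpha V genes gave another view of the locus. The 103 alpha V genes summed to 96.4 and 103 CPM in 8633 and 77.9 and 78.9 in JW14, close to the 89.6 and 103 and the 84.2 and 81.0 of *Trac* itself. In 5C, where *Trac* was highest, they summed to 16.4 and 14.9 CPM, 0.123 and 0.110 alpha V counts per *Trac* count. The ratio lay between 0.479 and 1.81 in 20M, 2M, 73M, 78A, 8633, JW14 and JW81. 73A had 81 and 235 alpha V counts with 17 and 21 on *Trac*, a ratio of 4.76 and 11.2. Genes named for both chains were among the leading ones there. In its VEH library *Trav21-dv12* held 11.1% and *Trav16d-dv11* 8.64%, behind *Trav17* at 24.7%. In its DEX library *Trav16d-dv11* led with 12.2%. In 5C 1 gene, *Trav6-4*, held 81.6% (75.4% to 86.5%) and 80.8% (76.7% to 84.2%) of the alpha V counts. In 8633 *Trav21-dv12* held 57.7% and 55.7% and *Trav3-3* 31.5% and 35.1%, and JW14 had the same pair at 63.3% and 57.9% and at 29.5% and 31.4%. Elsewhere among the 9 leukemias the leading alpha V gene had at most 26.8%, and in 20M it was a pair of near-identical copies, *Trav5d-4* and *Trav5n-4*, to which RSEM gave equal counts. Alpha V genes exist in several such copies, so the shares of single copies are uncertain. Of the 9 leukemias, the 4 with the same leading alpha V gene in both libraries were 20M, 5C, 8633 and JW14. In 4638 the alpha V genes summed to 52.5 and 32.6 CPM, 0.984 and 0.982 counts per *Trac* count, and *Trav8-1* led in both libraries with 53.0% and 48.3%.

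**Figure D4:**
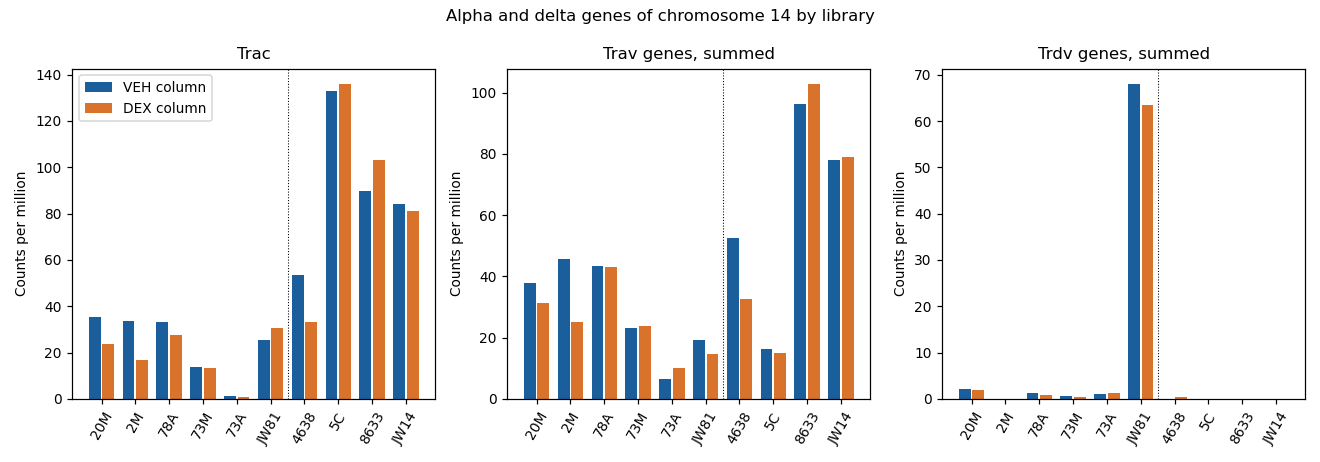
CPM (counts scaled to a common library size, y axes, from 0) of *Trac*, of 103 alpha V genes and of 5 delta V genes in the VEH and DEX libraries of each leukemia (x axes, with the dotted line before the leukemias with low NOTCH1 targets). Delta V genes reach 67.9 and 63.4 in JW81 and at most 2.11 elsewhere, and 5C combines the highest *Trac* with 16.4 and 14.9 on alpha V genes.

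The NOTCH state of a leukemia is not labelled, and was read from the libraries as the mean log2(FPKM + 1) of 8 targets of NOTCH1, a receptor that drives early T-cell development. By this mean the leukemias fell into separate clusters. The list stood at 4.14 to 5.17 in 20M, 2M, 73A, 73M, 78A and JW81, and at 0.28 to 0.62 in 5C, 8633 and JW14, with 0.91 in 4638. The leukemias called low in targets were those with *Dtx1*, a direct target on the list, below 1 FPKM in both libraries. That rule fixed the split of *Dtx1*, which was 42.9 to 119 FPKM in the first cluster and 0.157 to 0.283 FPKM in the second. Not every target divided the leukemias. *Nrarp* was 0.246 FPKM in JW81, below 0.869 in 5C and 0.559 in 4638. *Heyl* was 1.49 FPKM in JW81, against 1.09 in 5C and 3.02 in 4638. The other targets separated by leukemia mean. Since the clusters come from the same libraries as the constant genes, the values are given as a description, with no test.

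*Trac* was the constant gene that followed this division. Its 6 libraries in 5C, 8633 and JW14 ranged from 86.6 to 145 FPKM (median 103) and its 12 libraries in the leukemias with high targets from 0.966 to 37.8 FPKM (median 26.2), with no overlap. The same separation, with low-target libraries above, was found for 921 of 11339 genes, or 8.12%, and the opposite one for 8.33%. It was also found without 8633, without JW14 and without 5C, where 9.37%, 9.22% and 13.6% of genes separated in this direction. With 4638 included the ranges overlapped, since its DEX library had 35.5 FPKM, below the 37.8 FPKM of the VEH library of 20M, and 1.93% of genes then separated in this direction and 3.49% in the other. *Tcrg-C4* leaned the other way, with 19.4 to 34.8 FPKM (median 29.3) in the low-target libraries and 31.1 to 220 FPKM (median 101) in the others, and the DEX library of 20M, at 31.1 FPKM, was the one that overlapped. *Tcrg-C1* overlapped between the clusters, at 0 to 45.7 FPKM (median 0.119) with low targets and 0.327 to 296 FPKM (median 42.7) with high targets. Of the low-target leukemias of the tests, 5C alone had it above 0.143 FPKM, and 4638 had 97.7 and 114 FPKM. *Tcrg-C2* was high in some leukemias of each cluster, at 0.0767 to 92.4 FPKM (median 54.2) with low targets and 0.110 to 228 FPKM (median 20.1) with high targets. Over the 9 leukemias, Pearson's r between the log2 levels of *Trac* and *Tcrg-C4* was -0.80, and the other pairs of constant genes lay between -0.10 and 0.41. The r of *Trac* and *Tcrg-C4* was -0.78 without 8633 and also without JW14. The myeloid sum was 10.1 to 87.6 FPKM in the low-target libraries and 33.6 to 568 in the others, and the T lineage sum 341 to 642 and 626 to 1044. The B lineage sum was 0.545 to 0.821 FPKM and 1.12 to 29.8 FPKM, with no overlap, although it was 31.2 and 50.1 FPKM in 4638. The part of these cell types in these differences was not tested.

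**Figure D5:**
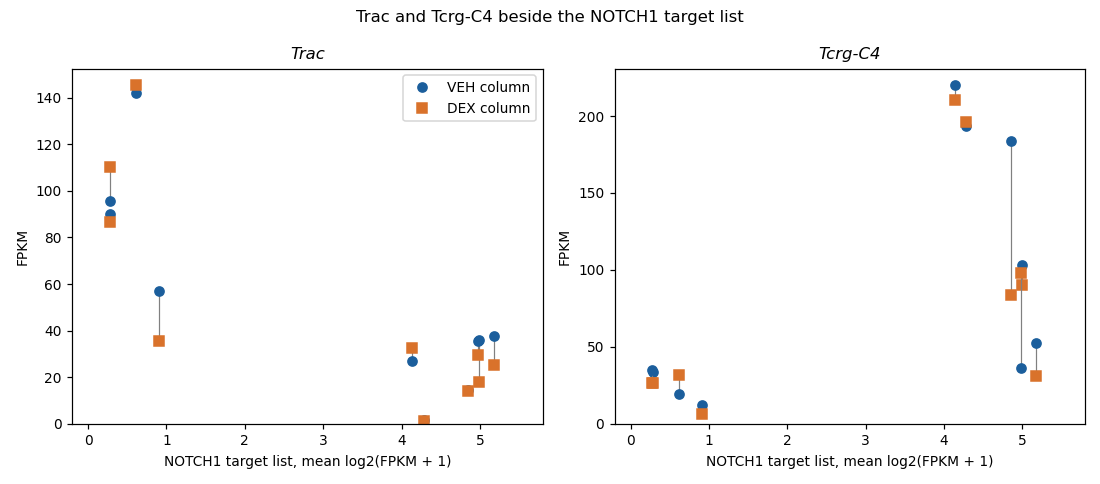
FPKM of *Trac* and of *Tcrg-C4* (y axes, from 0) in the VEH (circles) and DEX (squares) libraries against the mean log2(FPKM + 1) of 8 NOTCH1 targets in the leukemia (x axes), for 10 leukemias. The leukemias form clusters below 1 and above 4 on the x axis, and *Trac* reaches 86.6 FPKM or more in 5C, 8633 and JW14 and at most 37.8 FPKM in the leukemias above 4.

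The partners of these chains and the genes that assemble them were tested among the leukemias as well, and the counts of each list are to be read against the 82.5% of all genes that passed. All 5 genes of the CD3 and pre-TCR list passed. The CD3 chains, which carry every receptor's signal, covered a narrower range, from 15.4 FPKM in JW14 to 33.4 FPKM in 20M for *Cd3e* and from 52.3 FPKM in 5C to 134 FPKM in JW81 for *Cd3d*. *Ptcra*, the pre-TCR alpha chain, was 4.01 to 28.6 FPKM in the leukemias with high targets, 0.0689 in 5C and listed at 0 in 8633 and JW14. *Ptcra* is itself one of the 8 targets. Both beta constant genes passed, with *Trbc2* at 284.5 to 1030 FPKM in every leukemia. *Trbc1* was 816 FPKM in 20M and 0.103 in 78A, 0.203 in 73M and 0.661 in 5C. The recombination genes all passed (3 of 3). *Rag1*, a part of the RAG recombinase, was 27.1 to 172 FPKM in the leukemias with high targets. It was at most 0.185 FPKM in 5C, 8633 and JW14, and 2.42 FPKM in 4638. *Rag2*, another part, did not divide as clearly. It was 0.265 FPKM in JW81 and 2.10 to 15.2 FPKM in the other leukemias with high targets. In 5C it was 0.126 FPKM, in 4638 0.671 FPKM, and in 8633 and JW14 it was listed at 0. *Dntt*, which adds bases to the joins, was highest in JW81 at 294 FPKM and was 0.228 in 5C, 1.47 in 8633 and 16.7 in JW14.

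The leukemias with high *Trac* differed in their coreceptors. 5C had 174 FPKM of *Cd4*, 0.359 of *Cd8a* and 9.70 of *Cd8b1*, the genes of the CD8 chains. In 8633 the same genes were at 9.63, 0.300 and 14.3 FPKM and in JW14 at 8.49, 0.1004 and 16.2 FPKM. JW81 had 1.52, 0.323 and 33.8 FPKM, while 20M had 43.5, 168 and 106 FPKM. Of 9 genes associated with gamma-delta T cells, 8 could be tested and 8 passed among leukemias, near the 82.5% of all genes. Their highest levels were spread over several leukemias. *Sox13*, a transcription factor of gamma-delta thymocytes, was highest in 2M (16.1 FPKM) and lowest in JW81 (0.470 FPKM), while *Maf*, a factor of the same cells that was too low to be tested, was highest of the 9 in JW81 (1.70 FPKM). *Blk*, a kinase of these cells, was also highest in 2M (97.7 FPKM). *Il23r*, the interleukin 23 receptor, was highest in 5C (17.9 FPKM), *Cd163l1* in 73A (26.4 FPKM) and *Etv5* in JW14 (98.7 FPKM) and 8633 (96.3 FPKM). Of 18 regulators of the receptor loci, 15 could be tested and 13 passed, again near the 82.5% of all genes. *Gata3* and *Tcf7* did not pass (adjusted p 0.0788 and 0.0995 in edgeR's quasi-likelihood F test). *Il7r*, the interleukin 7 receptor chain that acts through STAT5 on the gamma locus, was 26.1 FPKM in 73A, 21.7 in 73M, 21.0 in JW14 and 19.3 in 2M, against 0.201 in 20M, 0.488 in 5C and 0.760 in JW81. *Tcf12*, an E protein, ranged from 14.8 FPKM in JW14 to 65.2 FPKM in 20M. The homeobox gene *Tlx3* was at most 0.0100 FPKM.

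The genes most like each constant gene, by Pearson's r of log2 levels over the 9 leukemias among genes averaging 1 FPKM or more, began with a V gene for each gamma gene. For *Tcrg-C1* they were *Tcrg-V4* (0.99), *Lysmd3* (0.94), *Ppm1e* (0.94), *Erc1* (0.94) and *Sidt1* (0.91). For *Tcrg-C2* they were *Trgv2* (0.92), *Nrros* (0.92), *Klhl23* (0.91), *Gm9821* (0.89) and *Cmas* (0.88). *Tcrg-C4* was followed by *Tcrg-V1* (0.96), *2010111I01Rik* (0.95), *Metap1d* (0.94), *Ndrg1* (0.94) and *Gria3* (0.93). For *Trac* the list was *Limd2* (0.96), *Rinl* (0.94), *Ccdc71* (0.94), *Nt5c3b* (0.92) and *Ap1b1* (0.92), and it held no alpha V gene. For these 20 pairs r was at least 0.88 without 8633, and likewise without JW14. With 9 points and 11339 genes, values of this size are a description of these leukemias.

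The columns named DEX and VEH were compared with the leukemia as a block. None of the 4 constant genes passed in edgeR's quasi-likelihood test, at an adjusted or an unadjusted p of 0.05, and DESeq2 called none either. With 4638 added none passed, with adjusted p of at least 0.313. The test called 1475 of 11339 genes, or 13.0%. That number ran from 676 (without 20M) to 2041 (without 5C) when each leukemia was left out. It was 465 with a term for libraries with counts on ribosomal RNA genes. The log2 difference, DEX minus VEH, was 0.26 (SE 0.28, adjusted p 0.543) for *Tcrg-C1*, higher in DEX in 6 of 9 leukemias, and it was 0.045 without 73A, 0.46 without 73M and 0.52 in DESeq2. It was -0.15 (SE 0.15, adjusted p 0.512) for *Tcrg-C2*, higher in 2 of 9. For *Tcrg-C4* it was -0.044 (SE 0.21, adjusted p 0.909) and for *Trac* -0.14 (SE 0.13, adjusted p 0.482), each higher in DEX in 3 of 9. Within single leukemias the log2 difference ran from -0.92 to 2.07 for *Tcrg-C1* and from -1.13 to 1.42 for *Tcrg-C4*, so differences of this size between libraries of 1 leukemia had no common direction. Of the 5 libraries with counts on ribosomal RNA genes, 4 were DEX columns, and with a term for them *Tcrg-C4* stood at 0.20 (adjusted p 0.592). Without the leukemias that hold these libraries, *Tcrg-C1* stood at 1.06 over 8 libraries (unadjusted p 0.0219, adjusted p 0.146 in edgeR). None of the CD3, pre-TCR, beta constant and coreceptor genes passed, and their lists had median log2 differences of -0.072, -0.016 and 0.16 against 0.0039 over all genes tested. In the recombination list *Dntt* was lower in DEX columns (-0.86, SE 0.22, adjusted p 0.0259). In the gamma-delta T list *Etv5* (0.54) and *Zbtb16* (1.61) were higher and *Sox13* (-0.82) and *Id3* (-1.40) lower, with adjusted p of 0.0243, 0.0218, 0.0115 and 0.00733 in edgeR. Among the locus regulators *Runx1*, *Gata3* and *Tcf7* were lower (-0.50, -0.80 and -0.43, adjusted p 0.0146, 0.0310 and 0.0373). These 8 genes kept their sign, but 5 passed without the leukemias with ribosomal RNA counts and 3 with the term for those libraries (*Zbtb16*, *Sox13* and *Id3*). In the NOTCH1 target list *Il2ra* was lower (-0.96), and in the T lineage list *Cd5* (-0.62), with adjusted p of 0.0115 and 0.0108 in edgeR. Values with the ribosomal RNA counts taken into account are not given for *Il2ra* and *Cd5*. In the same columns the 6 myeloid genes tested had a median log2 difference of -0.37, with 1 lower (*Itgam*, -0.47, adjusted p 0.0369 in edgeR), and the 1 B lineage gene tested stood at -0.63 without passing, and their part in these differences was not tested.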

How the data were processed

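Total RNA from the bone marrow of transplanted mice was poly(A)-selected and made into TruSeq libraries for paired-end sequencing. The authors mapped the reads to mm10 with Bowtie 2 and quantified genes with RSEM, and the deposited table holds RSEM expected counts for 39017 Ensembl genes, although its name refers to FPKM. Other versions, the annotation and the strand setting are not given in the sources used here. RSEM divides reads that match several genes, so counts of near-identical copies are estimates.

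Gene symbols, positions and merged exon lengths (37693 genes) were taken from GENCODE M21. FPKM were calculated from the deposited expected counts, the exon length and the library's total. The level of a gene was the mean of log2(FPKM + 1) over both libraries of a leukemia. Shares have 95% Wilson intervals and were given where a locus had at least 50 counts. Expected counts were rounded and fitted with edgeR 4.0.16 (quasi-likelihood, TMM, Benjamini-Hochberg over the 11339 genes averaging 1 FPKM or more, threshold 0.05) in R 4.3.3, on 18 libraries of 9 leukemias, with a term for the column name or with the leukemia as a block. The fits were tested on simulated data. DESeq2 1.42.0 was an alternative. V shares, correlations and figures were made in Python 3.11.15 with pandas 2.3.3. Standard errors came from the quasi-likelihood F statistic.

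The members and lists were chosen with earlier results of these data known, and the alternatives without 8633, JW14 or 5C and those with 4638 beside the NOTCH1 targets or without 8633 or JW14 in the correlations, and those for ribosomal RNA counts in genes of the lists, were chosen after seeing the data. Named genes were the constant genes, the 5 genes with the highest r for each, the members of the lists and the leading V genes, except for an item that is not reported here. *Tcrg-V5*, *Tcrg-V6*, *Tcrg-V7*, the further delta V genes and *Dad1* were named after their values were seen. The DEX columns of 2M, 4638 and 73A were matched by leukemia, since the last part of their names differs from the labels. The 2 libraries of a leukemia are the pairs of the block, as they come from the same tumour.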

Additional observations from a re-analysis of the deposited data

Results flagged for a closer look

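Leukemia 4638 was outside the tests, and all 4 constant genes were above the limit that a count of 0 allows in both of its libraries. *Tcrg-C1* was 97.7 FPKM in the VEH library and 114 FPKM in the DEX library, *Tcrg-C2* 65.4 and 45.3 FPKM, *Tcrg-C4* 12.2 and 6.59 FPKM, and *Trac* 57.0 and 35.5 FPKM. Its *Tcrg-C4* values were below the 19.4 FPKM that was lowest among the 18 other libraries. The myeloid sum, at 1383 and 952 FPKM, was above the 568 FPKM that was highest in those libraries, and its part in these levels was not tested. Among the 9 other leukemias, no constant gene had a lowest or highest leukemia far enough from the rest to be set apart. The nearest was *Trac* in 73A, whose gap to the next leukemia was 0.463 of the whole range, against a limit of 0.493.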

How the results depend on the processing

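The call of all 4 constant genes among leukemias was kept under all 27 alternatives, with adjusted p up to 9.44e-06 for *Tcrg-C1*, 4.83e-07 for *Tcrg-C2*, 0.00258 for *Tcrg-C4* and 4.13e-05 for *Trac*. In the comparison of DEX with VEH columns the 4 genes passed in 0 of 17 alternatives, by edgeR or DESeq2, with adjusted p of at least 0.146. The number of genes called, 1475, ranged from 676 (without 20M) to 2041 (without 5C) when each leukemia was left out, and was 739 without 2M, 766 without 73A, 847 without 73M and 966 without JW81. It was 475 without the leukemias that have a library with ribosomal RNA counts, 465 with a term for those libraries beside the replicate block, and 8 with no replicate block. *Tcrg-C1*, at 0.26, moved to 1.06 without the leukemias with ribosomal RNA counts (unadjusted p 0.0219 in edgeR), 0.47 with the term, 0.52 in DESeq2, 0.028 with no replicate block, and 0.045 (without 73A) to 0.46 (without 73M) over each leukemia left out. The sign of *Tcrg-C4* turned, to 0.26 without the leukemias with ribosomal RNA counts, to 0.20 with the term, and within the range of -0.24 to 0.086 over each leukemia left out (without 20M, 73M or JW14). The cause was not tested. The difference between the highest and lowest leukemia on the log2 scale was 7.93 for *Tcrg-C1*, 8.54 by TPM and 10.8 with a pseudocount of 0.1. It was 7.55 for *Tcrg-C2*, 7.90 by TPM and 9.77 with that pseudocount, and 6.04 for *Trac*, 6.81 with that pseudocount, by whose construction levels near 0 are spread. By TPM the highest leukemia was 2M for *Tcrg-C1* and 73A for *Tcrg-C4*. The number of constant genes whose libraries separated by NOTCH1 targets was 1, became 0 with 4638, stayed 1 without 8633 or JW14, and was 2 without 5C. The second was *Tcrg-C1*, lower in 8633 and JW14 (14.5% of genes separated so), but this takes 0 counts in the JW14 DEX library as 0, and its floor of 0.395 FPKM lies above the 0.327 FPKM of 78A. By share of FPKM the leading gamma V gene was another one in 4 of 18 libraries, those of 73M and JW81, where *Tcrg-V1* led. A delta V share could be given in 4 libraries, and in 8 with a minimum of 20 counts. With 2 libraries per leukemia, a difference between neighbours in an order rests on 2 values each, and the depth of the shallowest library, 8226528 counts, sets the floor of 0.395 FPKM for *Tcrg-C1* (3 counts).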
